A study of Bos grunniens with 18 samples.

Results

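The m6A peaks that lay in 5' UTRs of the yak (Bos grunniens) ovary were examined at 3 stages, anestrus (group YO-A), estrus (group YO-F) and pregnancy (group YO-P). A peak was taken where its annotation in the peak list of a stage read 5' UTR. This gave 30 of the 310 peaks analysed here, of which 1 of 10 was in anestrus, 1 of 18 in estrus and 28 of 282 in pregnancy. The parts of the lists analysed differed in reach, as described below, so these counts do not compare the stages. The 30 peaks belonged to 27 host genes, 24 with a gene symbol and 3 known only by an identifier. Ovaries of adult yaks aged 6 years were collected on 1 farm in April for anestrus, August for estrus and December for pregnancy, so that stage and month of collection cannot be told apart. For each stage, 3 libraries were made from poly(A) RNA fragments pulled down with an antibody against m6A (IP) and 3 from the same RNA without the pull-down (input). All samples were unmodified ovarian tissue, which holds many cell types, and in such tissue fewer cells of a type and less RNA per cell cannot be told apart.

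N6-methyladenosine (m6A) is a methyl mark on adenosines inside mRNA, written by a methyltransferase complex around METTL3 and METTL14, removed by FTO and ALKBH5, and read by proteins of the YTH family. It is best known near stop codons, in 3' UTRs and in long internal exons. The 5' UTR is the stretch between the cap and the start codon, and methylation there has been studied for its part in cap-independent translation, while antibodies against m6A also bind the related m6Am mark next to the cap.

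The parts of the 3 lists analysed here did not reach equally far, and this sets what can be compared between stages. All peaks analysed here were on chromosome 1, and each list ran in order of position on the plus strand. In the parts analysed, the anestrus list reached base 27546263, the estrus list base 36965772 and the pregnancy list base 172200451. In pregnancy, 44 peaks on the minus strand followed, between 11912863 and 46144327. Later parts of the lists were not analysed here. The peaks of a stage came as 1 list for all its replicates, so no error between replicates could be given for a peak. No test between stages was made. Estrus replicate 2 (YO-F2), whose input library is left out of the expression comparison below, could not be taken out of the estrus list. Its effect on the presence or absence of estrus peaks was not tested.

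5' UTR peaks were the smallest annotation class in each list. They made up 10% of the peaks in anestrus (95% Wilson interval 1.79% to 40.4%), 5.56% in estrus (0.988% to 25.8%) and 9.93% in pregnancy (6.96% to 14.0%). The intervals cover counting error only and take the peaks as independent, although peaks can share a gene. Since the lists reached unequally far, the intervals do not compare the stages. Exon peaks numbered 6, 11 and 196 in the same order, and 3' UTR peaks 3, 6 and 58. On the part of the plus strand that all 3 lists covered, the 5' UTR peaks numbered 1 of 10 in anestrus, 0 of 7 in estrus and 1 of 6 in pregnancy, and both were in VGLL3. On the longer part covered in estrus and pregnancy, estrus had 1 of 18, in BACH1, and pregnancy 1 of 12, in VGLL3. Within these shared parts no stage had more than 1 peak, and 0 host genes carried a 5' UTR peak in all 3 stages.

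VGLL3, a vestigial-like cofactor of the TEAD transcription factors, was the host gene that held a 5' UTR peak in 2 stages. The gene was listed on the plus strand from 956005 to 1012265. In anestrus the 5' UTR peak covered bases 120 to 388 from the gene start, as 1 block of 269 bases, with a fold enrichment of IP over input of 8.91 and a log10 FDR of -1.18. In pregnancy the 5' UTR peak began at the first base of the gene and consisted of 4 blocks of 609, 286, 107 and 70 bases, with a fold enrichment of 17.8 and a log10 FDR of -24.8, the highest enrichment among all 30 peaks. All 269 bases of the anestrus peak lay inside the first block of the pregnancy peak.

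In estrus VGLL3 had no 5' UTR peak but an exon peak over bases 566 to 609 and 13645 to 13691, with a fold enrichment of 13.8 and a log10 FDR of -2.66. All 91 bases of it lay within the blocks of the pregnancy 5' UTR peak, and it began 177 bases after the end of the anestrus 5' UTR peak. Anestrus likewise had an exon peak, over bases 596 to 609 and 13645 to 13810, with a fold enrichment of 20.8 and a log10 FDR of -21.2. Its 180 bases too lay within the pregnancy peak. Bases 596 to 609 and 13645 to 13691 were thus covered in all 3 stages, under the label of 5' UTR in pregnancy and of exon in anestrus and estrus. Bases 120 to 388 were covered in anestrus and pregnancy. Both anestrus and pregnancy also had a VGLL3 peak in the 3' UTR, with fold enrichments of 6.13 and 4.15.

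**Figure D1:**
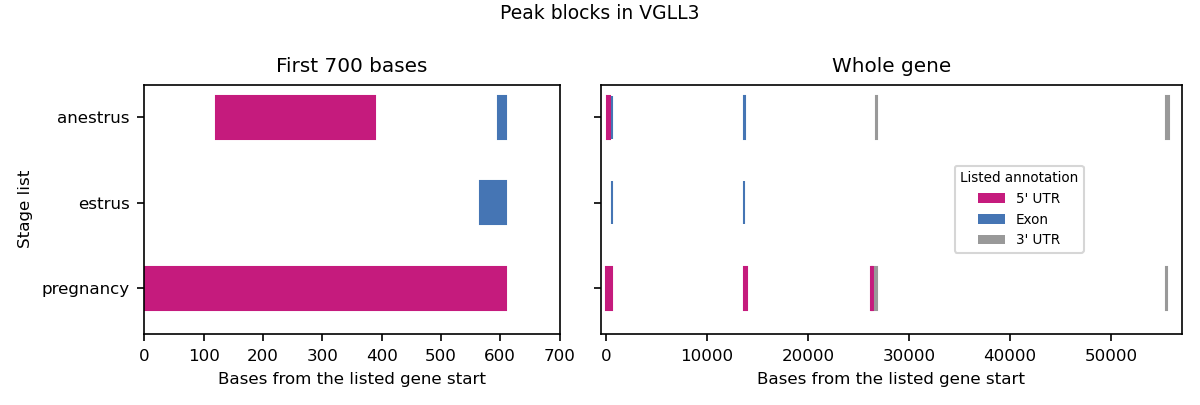
Blocks of the VGLL3 peaks in the lists of anestrus, estrus and pregnancy (rows), by distance in bases from the listed gene start, over the start of the gene (left) and the whole gene (right), coloured by the listed annotation. The pregnancy 5' UTR peak takes in the 5' UTR peak of anestrus and the exon peaks of anestrus and estrus.

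BACH1, a heme-binding repressor of antioxidant genes, carried the 5' UTR peak of estrus. The peak lay at chromosome 1, bases 31783463 to 31783671, and began at the first base of the gene. Its fold enrichment was 4.28 and its log10 FDR -1.41. Estrus had 3 further BACH1 peaks, 2 in exon 2 with fold enrichments of 6.30 and 1.70 and 1 in exon 4 with 6.54. In pregnancy BACH1 had a peak in exon 2, with a fold enrichment of 8.47 and a log10 FDR of -28.8, but had none labelled 5' UTR. The anestrus list analysed here ended before BACH1.

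The enrichment of the 28 pregnancy peaks ranged from 1.27-fold to 17.8-fold, with a median of 4.50 and quartiles of 2.84 and 6.48. The 254 pregnancy peaks outside 5' UTRs had a median of 4.43 with quartiles of 2.90 and 7.40. The medians of the 3' UTR peaks and the exon peaks were 4.32 and 4.48. The level of enrichment in 5' UTRs was therefore much like that elsewhere in the same list.

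**Figure D2:**
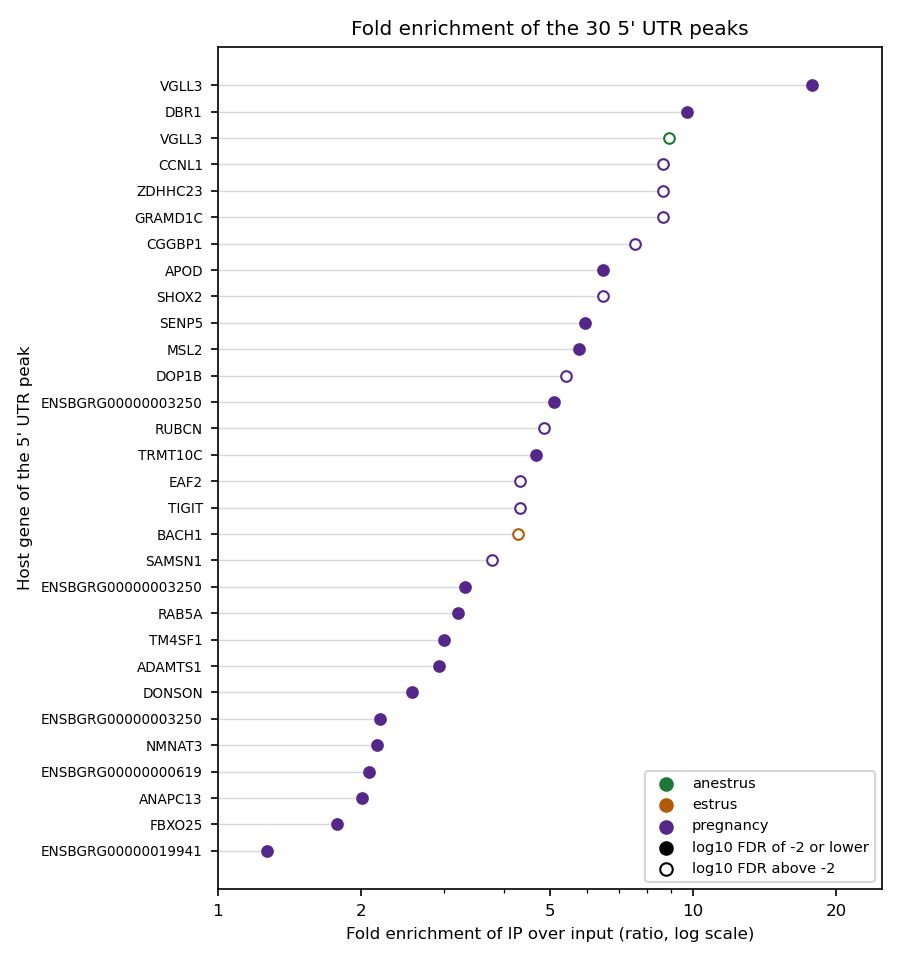
Fold enrichment of IP over input (ratio, log axis) of each of the 30 5' UTR peaks by host gene, coloured by stage, with filled points at a log10 FDR of -2 or lower and open points above it. The anestrus and estrus peaks are open, and of the pregnancy peaks 18 are filled, with VGLL3 at 17.8 the farthest to the right.

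The host genes are given by their known roles, from transcription and RNA handling onwards. After VGLL3, the highest pregnancy value was in DBR1, the enzyme that opens intron lariats, at 9.72-fold over 150 bases (142697835 to 142697984). CCNL1, a cyclin that acts with kinases of splicing, had 8.64-fold over 91 bases (120219240 to 120219330). CGGBP1, a protein that binds CGG repeats, had 7.56-fold over 269 bases. SHOX2, a homeobox transcription factor, had 6.48-fold in blocks of 721 and 830 bases (119114402 to 119117273). Of these, DBR1 passed a log10 FDR of -2 by a small margin, at -2.01, while CCNL1, CGGBP1 and SHOX2 did not, at -1.02, -0.771 and -1.12.

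MSL2, the ubiquitin ligase of a histone acetyltransferase complex, stood at 5.76-fold with a log10 FDR of -222. Its peak had 1 block of 387 bases at the gene start and a second block of 1352 bases that ended 240 bases before the end of the gene, so most of the peak lay far from the cap although the label was 5' UTR. TRMT10C, a subunit of the mitochondrial RNase P, had 4.68-fold and a log10 FDR of -7.56, in a short block of 35 bases and a second of 264 bases. EAF2, a partner of the elongation factor ELL, had 4.32-fold and a log10 FDR of -0.600. The EAF2 peak began 699 bases before the listed start of the gene.

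Among host genes of protein modification, SENP5, a protease that removes SUMO, had 5.94-fold and a log10 FDR of -3.47. ANAPC13, a subunit of the anaphase-promoting complex, had 2.01-fold and a log10 FDR of -58.6. FBXO25, an F-box protein of a ubiquitin ligase, had 1.78-fold and a log10 FDR of -3.60. ZDHHC23, a palmitoyltransferase, had 8.64-fold over 151 bases and a log10 FDR of -1.02.

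Host genes of lipid transport and membrane traffic included 2 peaks over 6-fold. GRAMD1C, a sterol transfer protein between the plasma membrane and the endoplasmic reticulum, had 8.64-fold and a log10 FDR of -1.53 in 5 blocks across 67586 bases. APOD, the lipocalin apolipoprotein D, had 6.48-fold over 685 bases (78243928 to 78244612) and a log10 FDR of -3.40. DOP1B, a protein of endosome and Golgi traffic, had 5.40-fold at -0.600. RUBCN, a negative regulator of autophagy, had 4.86-fold at -1.07. RAB5A, the GTPase of early endosomes, had 3.21-fold and, with -42.4, much the lowest log10 FDR of these genes.

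TIGIT, an inhibitory receptor of T cells and natural killer cells, had 4.32-fold and a log10 FDR of -0.937. SAMSN1, an adaptor protein of lymphocytes, had 3.78-fold and a log10 FDR of -1.42, in 8 blocks across 77155 bases, the longest span of the 30. Neither of these immune genes passed a log10 FDR of -2. ADAMTS1, a secreted protease that cleaves versican and is induced around ovulation, had 2.93-fold over 151 bases (28762356 to 28762506) with a log10 FDR of -82.0. TM4SF1, a membrane protein abundant in endothelium, had 2.99-fold over 59 bases and a log10 FDR of -45.4. DONSON, a protein of the replication fork, had 2.57-fold and -3.63, and NMNAT3, an enzyme of mitochondrial NAD synthesis, 2.16-fold and -254.

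The 3 genes without a symbol held 5 of the 28 peaks. ENSBGRG00000003250 had 3 of them, at 5.11-fold, 3.32-fold and 2.20-fold with log10 FDR values of -89.1, -79.5 and -113, the first at the gene start, the second 477 bases and the third 4889 bases downstream. The 3 peaks share a host gene and are not independent. ENSBGRG00000000619 had 2.08-fold and a log10 FDR of -30.1, and ENSBGRG00000019941 had the lowest value of all, 1.27-fold, with -4.38.

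Strong statistical evidence and high enrichment did not go together among these peaks. A log10 FDR of -2 or lower was reached by 18 of 28 5' UTR peaks in pregnancy (64.3%), against 200 of 254 other peaks (78.7%), 87.9% of the 3' UTR peaks and 76.0% of the exon peaks. The median log10 p-value was -4.31 in 5' UTRs and -16.1 elsewhere. The 18 peaks that passed had a median enrichment of 3.10-fold, and 9 of them were under 3-fold. The 10 that did not pass had a median of 5.94-fold, between 3.78-fold and 8.64-fold. The same order held for the other peaks, at 4.18-fold for those that passed and 6.48-fold for the 54 that did not. Across the 28 peaks, Spearman's rho of fold enrichment with log10 p was 0.456, given as a description, since the points come from 1 list and fold and p share the same reads. DBR1 at -2.01 was the member just inside the limit and GRAMD1C at -1.53 the one just outside. The anestrus peak in VGLL3 and the estrus peak in BACH1 were both outside.

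Many of the enrichment values stood on a regular ladder. Of the 27 pregnancy 5' UTR peaks under 10-fold, 14 (51.9%) had a fold enrichment within 0.005 of a whole multiple of 0.54, against 59 of 221 other peaks (26.7%). At the steps tried from 0.50 to 0.58, other than 0.54, between 0 and 2 of the 27 peaks were whole multiples. No source outside these values gave the step of 0.54, so the other steps describe the pattern and do not test it. Steps outside this range were not tried. CCNL1, ZDHHC23 and GRAMD1C shared the value 8.64, APOD and SHOX2 shared 6.48, and EAF2 and TIGIT shared 4.32. All 10 pregnancy 5' UTR peaks with a log10 FDR above -2 were on the ladder, and 0 of the 13 that were off it had a log10 FDR above -2. In the whole pregnancy list, 53 of 73 peaks on the ladder had a log10 FDR above -2. The lists give no read counts, so how many reads stood behind these values was not tested.

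**Figure D3:**
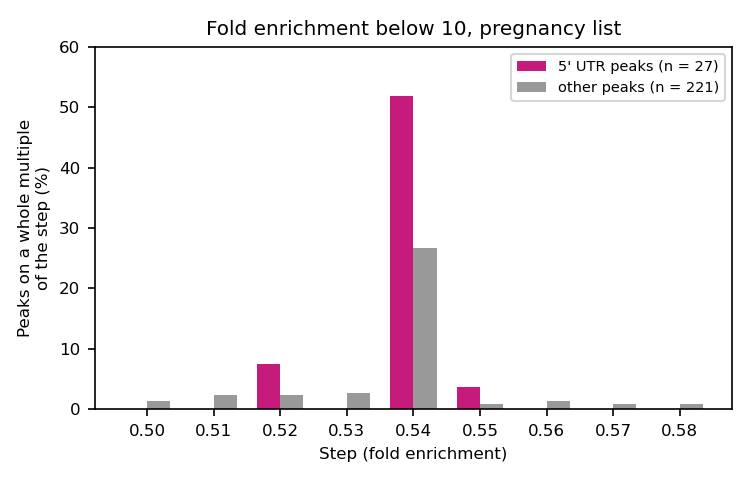
Share (%) of pregnancy peaks with a fold enrichment below 10 that is a whole multiple of the step on the horizontal axis, within 0.005, for 27 5' UTR peaks and 221 other peaks. At the step of 0.54 the shares are 51.9% and 26.7%, and at the other steps few peaks of either kind fall on a multiple.

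The length of a 5' UTR peak depended on how it was counted. By genomic span, from the first to the last base, the pregnancy peaks had a median of 1455 bases (59 to 77155) against 330 bases for the other peaks. By the summed length of the blocks, the median was 239 bases (59 to 1739) against 238. Blocks were separated by gaps in 15 of 28 5' UTR peaks and 87 of 254 others, and the span exceeded 10 kb in 6 of 28 and 26 of 254. The longer spans thus went with more peaks of several blocks, while the medians of the covered length were 1 base apart. The anestrus and estrus peaks had 1 block each, of 269 and 209 bases.

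**Figure D4:**
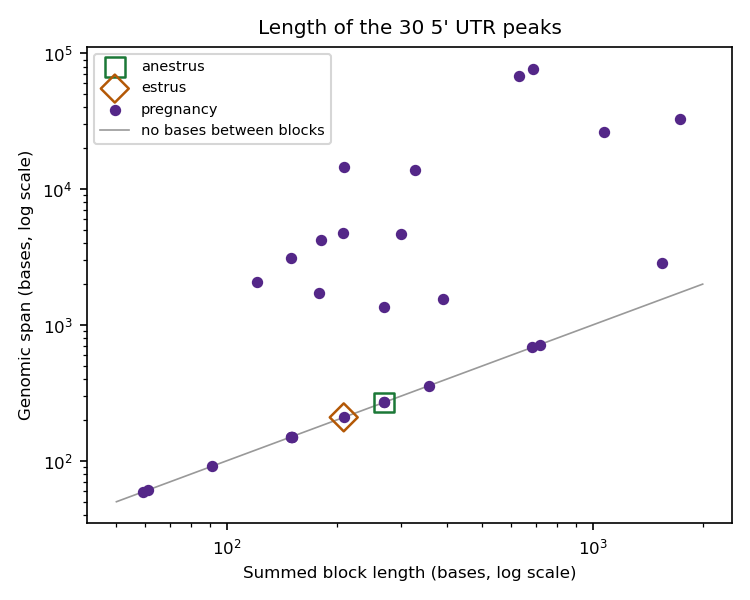
Genomic span against summed block length (both in bases, log axes) for the 30 5' UTR peaks, with filled circles for pregnancy and an open square and diamond for anestrus and estrus. The points on the line have 1 block, and the 15 pregnancy peaks above it have several blocks with gaps in between.

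Because a peak carried 1 label however many blocks it had, the position relative to the gene start was examined. Of the 28 pregnancy peaks, 15 were listed at a distance of 0 from the start, 8 at 1 to 1000 bases and 5 farther away. Among the 15, 13 began at the first listed base of the gene and 2, in EAF2 and ENSBGRG00000019941, began before it, the latter by 1967 bases. The 5 far peaks were in CGGBP1, ENSBGRG00000000619, NMNAT3, DOP1B and ENSBGRG00000003250, at 92461, 7417, 95501, 67154 and 4889 bases. Median enrichment was 4.68-fold for the 23 peaks within 1000 bases and 2.20-fold for the 5 beyond.

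In 2 of the far cases the label was at odds with other entries of the lists. The CGGBP1 peak (38733258 to 38733526) stood among the plus strand peaks, but CGGBP1 was listed on the minus strand, the one such mismatch among the 30 peaks against 14 among all 282 in pregnancy. It lay 238 bases inside ZNF654, a zinc finger gene on the plus strand from 38733020 to 38826550. Which of these overlapping genes the peak came from was not tested. In NMNAT3 the 5' UTR peak (141138570 to 141140123) ended 92 bases before the listed end of the gene, downstream of an NMNAT3 peak in exon 7 of 7 (141110463 to 141110763) and of a 3' UTR peak (141111243 to 141111603).

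Of the 26 host genes in pregnancy, 15 had another peak and 11 had the 5' UTR label alone. The 5' UTR peak was the most enriched of its gene in 6 of the 15. In VGLL3 it was 17.8-fold against 4.15-fold elsewhere in the gene. The other 5 were CCNL1 with 8.64-fold against 4.14-fold, CGGBP1 with 7.56-fold against 5.47-fold, APOD with 6.48-fold against 2.69-fold, RUBCN with 4.86-fold against 2.49-fold, and ENSBGRG00000000619 with 2.08-fold against 1.44-fold. In CCNL1, CGGBP1 and RUBCN this rested on 5' UTR peaks with log10 FDR values of -1.02, -0.771 and -1.07. The highest other peaks had -287, -47.8 and -4.76. These 5' UTR values were on the ladder, as was that of APOD, which had a log10 FDR of -3.40. The 5.47-fold CGGBP1 peak, like the 5' UTR one, stood among the plus strand peaks and lay within ZNF654. On the minus strand, where CGGBP1 was listed, the gene had a peak of 3.29-fold with a log10 FDR of -97.3. In the remaining 9 a peak elsewhere was higher. Among them were SHOX2, with 6.48-fold in the 5' UTR and 30.2-fold in the 3' UTR, DOP1B, with 5.40-fold and 21.6-fold in exon 18, and ZDHHC23, with 8.64-fold and 19.4-fold in an exon. NMNAT3 had 2.16-fold in the 5' UTR and 8.10-fold in exon 7, and ADAMTS1 had 2.93-fold and 4.71-fold in the 3' UTR. Peaks of 1 gene share its RNA, so these pairs describe the gene and are not replicates of each other.

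RNA levels in the input libraries were then compared between stages for the host genes, as the readout that had replicates. Levels were FPKM, in which fragments are scaled by transcript length and by library size, and 6 of the 27 host genes were among the 173 genes analysed here. All 6 were among the 130 genes tested. YO-F2 stood apart, with Pearson correlations of 0.777 to 0.842 with the other libraries against 0.907 to 0.981 among those. Leaving it out, as was done by the study, left the other estrus libraries, replicates 1 and 3. Depth cannot be read from FPKM. Of 156 marker genes of ovarian and other cell types, 2 were in the table, so the labelled tissue could not be checked against its markers.

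The study's standard, a log2 fold change of at least 1 in size and an unadjusted p under 0.05, was applied here with limma. The study itself used edgeR, so its own test was not repeated. By this standard 0 of 6 host genes were called between estrus and anestrus, where 1.54% of all genes tested were called. Likewise 0 of 6 were called between estrus and pregnancy, with 2.31% of all genes called. Between pregnancy and anestrus it was 0 of 6, with 2.31%. With 2 or 3 libraries per stage, a gene that was not called is not shown to be unchanged. No gene of the 130 had an adjusted p under 0.05 in any of these comparisons. At an unadjusted p under 0.05 alone, limma gave ADAMTS1 in the first comparison (12 of 130 genes, 9.23%), DONSON in the second (12 of 130, 9.23%) and 0 host genes in the third (4 of 130, 3.08%). The comparisons share libraries.

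VGLL3 had FPKM of 6.41, 2.24 and 2.81 in anestrus, 2.18 and 2.81 in estrus, with 0.135 in YO-F2, and 5.80, 3.55 and 5.17 in pregnancy. The means were 3.82 ± 2.26 (SD, n = 3), 2.49 ± 0.444 (n = 2) and 4.84 ± 1.16 (n = 3). Pregnancy lay above estrus without overlap, and anestrus overlapped both. How many of all genes tested lay without overlap was not counted, so such gaps, here and below, are given as description. On the log2(FPKM + 0.1) scale estrus was lower than pregnancy by a log2 fold change of -0.91 (SE 0.44, limma adjusted p = 0.535), which did not pass. With YO-F2 included the value was -2.06 (limma adjusted p = 0.442), and VGLL3 was then among 5 of 130 genes that met the study's standard.

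ADAMTS1 had the highest FPKM of the 6 host genes in the table, with values of 79.4, 137 and 106 in anestrus, 259 and 132 in estrus, with 11.6 in YO-F2, and 94.9, 114 and 169 in pregnancy. The means were 108 ± 28.7 (SD, n = 3), 196 ± 89.8 (n = 2) and 126 ± 38.8 (n = 3). The 2 estrus libraries differed from each other by more than the stage means, and the lower of them lay within the range of anestrus. The log2 fold change of estrus over anestrus was 0.82 (SE 0.34, limma adjusted p = 0.521). It rested on single libraries. Without anestrus replicate 2 it was 1.01, and ADAMTS1 was then among 3 of 130 genes that met the study's standard. It was 1.30 without estrus replicate 3, 0.33 without estrus replicate 1, and -0.51 with YO-F2 included.

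DONSON had FPKM of 7.50, 5.89 and 6.21 in anestrus, 6.70 and 7.87 in estrus and 5.09, 4.95 and 5.72 in pregnancy, with 5.71 in YO-F2. Pregnancy lay below estrus without overlap, with a log2 fold change of estrus over pregnancy of 0.46 (SE 0.20, limma adjusted p = 0.535). Pregnancy lay below anestrus without overlap as well, with a log2 fold change of -0.30 (SE 0.18, limma adjusted p = 0.874), or -0.20 without anestrus replicate 1. CGGBP1 had 26.6, 24.0 and 26.7 in anestrus, 28.6 and 27.6 in estrus and 25.4, 22.4 and 23.6 in pregnancy, with 10.3 in YO-F2. Its log2 fold change of estrus over pregnancy was 0.24 (SE 0.12, limma adjusted p = 0.535), again without overlap. This value was 0.042 after quantile normalization, 0.15 after median-ratio scaling and -0.24 with YO-F2 included. Estrus also lay above anestrus without overlap, by 0.13 (SE 0.12, limma adjusted p = 0.743), which was -0.078 after quantile normalization, 0.038 after median-ratio scaling, 0.080 with the replicate block, 0.077 without anestrus replicate 2 and -0.35 with YO-F2 included. ZNF654, which overlaps the CGGBP1 peak, had means of 2.25 ± 0.454 (SD, n = 3) in anestrus, 2.53 ± 0.142 (n = 2) in estrus and 2.06 ± 0.373 (n = 3) in pregnancy.

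BACH1 had FPKM of 3.52, 5.43 and 3.52 in anestrus, 3.67 and 2.92 in estrus and 3.06, 2.79 and 3.62 in pregnancy, with 0.921 in YO-F2. The stages overlapped, and the log2 fold change of pregnancy over anestrus was -0.36 (SE 0.26, limma adjusted p = 0.910). Of the values, anestrus replicate 2 stood above all others, and without it the log2 fold change was -0.16. SAMSN1 had 0.624, 1.97 and 1.25 in anestrus, 1.55 and 0.920 in estrus and 3.60, 1.49 and 1.10 in pregnancy, with 0.965 in YO-F2. The stages overlapped here too, with a log2 fold change of pregnancy over anestrus of 0.60 (SE 0.54, limma adjusted p = 0.910). It was 0.13 without pregnancy replicate 1, 0.20 without anestrus replicate 1, 0.94 without pregnancy replicate 3 and 0.96 without anestrus replicate 2.

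**Figure D5:**
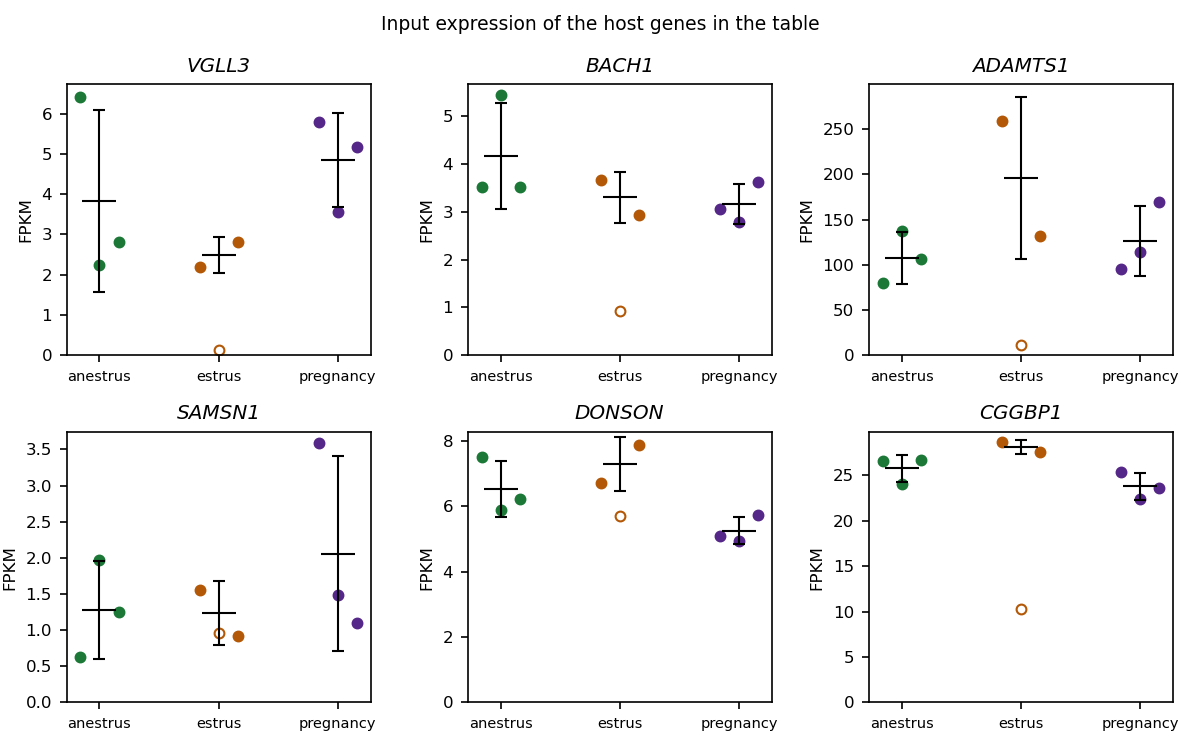
FPKM in each input library of the 6 host genes in the expression table, by stage, with horizontal bars for the mean and error bars for the SD (n = 3, 2 and 3), and with YO-F2, which is not in the mean, as the open point. YO-F2 is the lowest estrus library in each gene but SAMSN1, where replicate 3 is lower.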

How the data were processed

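Reads were aligned with HISAT2 2.0.4 and peaks annotated with ChIPseeker 1.18.0, per the submitters' processing notes. As deposited by the authors, each stage has 1 peak list, pooling its IP and input libraries. The lists hold the fold enrichment, a ratio of IP over input, the p-value, and, per the file headers, log10 scores for p and FDR. The study's methods name a Bos grunniens genome release for the input reads. The peak caller, its settings and the build of the peak lists are not given in the sources used here. No sequence is shown. Read depth per peak is not in the lists. The authors computed FPKM per gene for the input libraries with no further scaling stated. Their tables comparing peaks between stages (log2 fold change, p and FDR) were not used here. The opening rows of each table were analysed here, and 1 peak without an annotation was left out in estrus and in pregnancy. Strand was taken from the order of positions in the lists.

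Peaks were grouped by annotation, and counts, quartiles, Wilson intervals (95%) and block lengths were computed with Python 3.11.15, pandas 2.3.3, numpy 2.4.6, scipy 1.17.1 and matplotlib 3.10.9. Expression was analysed as log2(FPKM + 0.1), which understates changes of low genes, for 130 genes (minimum mean FPKM 0.1), with limma 3.58.1 in R 4.3.3 (trend), 3 stages in 1 fit of 8 libraries without YO-F2, and Benjamini-Hochberg adjustment over all genes tested. The fit was tested on simulated data with changes larger than those of the host genes, so its power for changes of their size was not tested. The libraries came from separate tissue samples, and p-values measure the spread between these. The host genes of the 10 most enriched peaks of a list were named by rule, and all members of lists of up to 20. The other host genes were named after their values were seen, to account for every peak. The members and lists were chosen with earlier results of these data known. Alternatives were thresholds on FDR and fold, the common part of the lists, merged peaks, pseudocounts, filters, scalings, a replicate block and leaving out each library.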

Additional observations from a re-analysis of the deposited data

How the results depend on the processing

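At a log10 FDR of -2 or lower, the count of 5' UTR peaks was 18 in pregnancy, 0 in anestrus and 0 in estrus. The median fold in pregnancy was then 3.10, against 4.50 without this limit. In the part covered by all 3 lists the count was 0 in estrus and 1 in pregnancy. The 1 peak left in pregnancy, in VGLL3, gave a median fold of 17.8 and a median length of 26429 bases. The median length in pregnancy was 239 bases by summed blocks. Host genes in all 3 stages numbered 1, VGLL3, when any annotation counted in the other stages. No median could be had in anestrus or estrus at the stricter FDR, or in estrus in the common part, since no peak was left. Merging overlapping peaks and a fold of at least 2 left 28 and 26 peaks in pregnancy.

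Host genes meeting the study's standard between estrus and pregnancy numbered 1 with YO-F2 included, where 5 of 130 genes were called. They numbered 1 with the replicate block (VGLL3 at -1.16, limma adjusted p = 0.500), where 4 of 130 genes were called. Deviations of same-numbered libraries from their stage means had correlations from -0.17 to 0.389 (7 pairs, 1 over 0.1). These few values, in which the estrus libraries mirror each other, cannot show whether the numbers pair the samples. The block changed no other host gene's call. Leaving out 1 anestrus or pregnancy library at a time gave 0 to 1 host genes between estrus and anestrus. The 1 was ADAMTS1 without anestrus replicate 2, where 3 of 130 genes were called. It gave 0 between estrus and pregnancy and 0 between pregnancy and anestrus. Without estrus replicate 3, the log2 fold change of ADAMTS1 for estrus over pregnancy was 1.08. Without an estrus library the 1 left is assumed to vary like the other groups. Over all genes, 2, 3 and 3 calls became 1 to 9, 1 to 9 and 1 to 4 over the 16 alternatives. With YO-F2 included, ADAMTS1 for estrus over anestrus turned to -0.51 and CGGBP1 for estrus over pregnancy to -0.24 and over anestrus to -0.35, the last also to -0.078 after quantile normalization. The cause was not tested.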
